A study of Mus musculus with 12 samples.

Results

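A set of 10 liver and hepatoma genes was followed through sorted regulatory T cells of mouse tumors and lymph nodes: Alb, Afp, Trf, Ttr, Apoa1, Apoa2, Itih2, Aldh1a1, Krt8 and Krt18. They were named as a group because they encode liver serum proteins, the keratins of hepatocytes, or products linked to Hepa1-6, the mouse hepatoma line of the study. The rule that names them uses no measured value, but earlier results of these data were known when they were chosen. All 10 genes were found among the 55413 genes of the deposited tables. Of these 10 genes, 7 passed the filter on low counts and were tested, and Ttr, Apoa1 and Apoa2 did not.

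Bulk RNA sequencing was done on 12 libraries of Treg cells, the Foxp3-expressing CD4 T cells that hold other immune cells in check. All samples carry the genotype label Foxp3YFP-cre and TCRbd-/-. TCRbd-/- hosts, which have no T cells of their own, received CD45.1 Foxp3YFP-cre thymic Treg cells (tTreg) together with cells from CD45.2 Foxp3YFP-cre mice, conventional CD4+ cells without Foxp3 and CD8+ cells, in a ratio of 1:10:8. Hepa1-6 cells were given 3 days after the transfer, and Treg cells were sorted by flow cytometry from tumors on day 18. Tumor pTreg (n = 3) were Treg cells that had arisen from the transferred conventional T cells, and tumor tTreg (n = 5) descended from the transferred thymic Treg cells. The comparison group was total Treg cells from lymph nodes of untreated, tumor-free mice (LN Treg, n = 4). The site of inoculation, the ages of the mice and any pooling of animals are not given in the sources used here. Whether each library came from its own animal is not stated in the labels, and the variation behind the p-values may therefore be technical. The labels also do not state whether pTreg and tTreg libraries came from the same mice.

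The liver secretes most plasma proteins, among them albumin, transferrin, transthyretin and the apolipoproteins of HDL, under the control of liver-enriched transcription factors such as the HNF4, FOXA and C/EBP proteins. Alpha-fetoprotein is the fetal counterpart of albumin, is switched off in the liver after birth and is made again by many hepatomas. Keratins 8 and 18 pair to form the intermediate filaments of hepatocytes and other simple epithelia.

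Alb and Afp are neighbours on the same strand of chromosome 5, and their promoters are shown because both genes were among those with many counts in tumor libraries. Alb lies at chr5:90460897-90476602 and Afp at chr5:90490737-90508907 (GRCm38, GENCODE vM21), with a gap of 14.1 kb and no other protein-coding gene between them. The promoter of Apoa2, another plasma protein gene but with almost no counts here, is printed for comparison. Each sequence is the stretch of 250 bases before the RefSeq start (RefSeq, GRCm38.p6), read 5′ to 3′ on the plus strand, from chr5:90460620-90460869 for Alb, chr5:90490464-90490713 for Afp and chr1:171224804-171225053 for Apoa2. Capitals mark GTTAAT, a hexamer searched for as a liver promoter motif, and TATAAA, the core of the TATA box.
Alb: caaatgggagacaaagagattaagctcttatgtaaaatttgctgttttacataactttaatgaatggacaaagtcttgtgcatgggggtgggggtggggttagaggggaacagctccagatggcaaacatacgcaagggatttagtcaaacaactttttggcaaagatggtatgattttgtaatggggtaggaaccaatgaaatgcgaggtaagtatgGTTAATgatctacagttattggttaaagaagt
Afp: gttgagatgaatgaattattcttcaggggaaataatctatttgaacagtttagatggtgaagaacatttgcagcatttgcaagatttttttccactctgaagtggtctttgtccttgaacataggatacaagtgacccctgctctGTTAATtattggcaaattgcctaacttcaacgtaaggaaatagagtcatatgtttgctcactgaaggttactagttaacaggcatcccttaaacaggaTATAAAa
Apoa2: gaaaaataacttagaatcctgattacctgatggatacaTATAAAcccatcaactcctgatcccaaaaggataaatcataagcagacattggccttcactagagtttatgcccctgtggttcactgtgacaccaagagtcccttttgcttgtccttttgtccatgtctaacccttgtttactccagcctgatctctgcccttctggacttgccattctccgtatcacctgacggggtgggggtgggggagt

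The hexamer GTTAAT stood at positions -32 to -27 of Alb and -105 to -100 of Afp, counted from the RefSeq start, and on either strand it occurred in 7.10% of 32851 RefSeq windows of the same 300 bases (250 before and 50 after a start). Of the 8 genes of the group that had a window, Alb and Afp were those with the hexamer. Trf and Ttr had no entry. The window of Apoa2 had TATAAA at -212 to -207, far from the start, and Afp had it at -7 to -2, where the GENCODE start lies 23 bases further downstream. TATAAA was present in 13.6% of all windows, and in windows of Afp, Apoa2 and Krt8. CCAAT, the core of the CCAAT box, was found in windows of Alb, Afp, Apoa2 and Aldh1a1 against 37.4% of all windows. CCGCCC, an Sp1-type GC box, was found in none of the group's 10 windows against 35.7% of all windows. These matches describe letters in a window, not bound sites.

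Library totals were 14.6 to 17.3 M counts in LN Treg, 18.0 to 18.2 M in tumor pTreg and 18.1 to 18.5 M in tTreg. Markers of the labelled cell type were low in the tumor libraries. The summed level of 5 Treg genes, Foxp3 among them, was 2618 ± 37.6 counts-per-million of the library total (CPM) in LN Treg, 295.5 ± 6.37 in tumor pTreg and 84.7 ± 1.81 in tTreg (mean ± SD). All 5 were detected in each group. The 18 pan-T genes, which encode CD3 and T cell receptor chains, signalling proteins, surface proteins such as CD2 and CD5, and the transcription factor Bcl11b, summed to 6653 ± 72.3, 1390 ± 13.9 and 135 ± 3.35 CPM. The 13 macrophage and monocyte markers went the other way, from 39.9 ± 3.42 CPM in LN Treg to 6530 ± 26.0 in tumor pTreg and 6767 ± 119 in tTreg, and all 13 were detected in each group. Sort purity was not among the details given, and the part of other cells or of free RNA in the levels below was not tested. In bulk libraries fewer cells of a type and less RNA per cell cannot be told apart.

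The 10 genes together took 0.000845 ± 0.0000907% of all counts in LN Treg, 0.613 ± 0.0197% in tumor pTreg and 0.886 ± 0.0168% in tTreg. In CPM the sum was 7.38 to 9.53 in the 4 LN libraries, 5931 to 6325 in the 3 tumor pTreg libraries and 8611 to 9018 in the 5 tumor tTreg libraries. The 3 ranges did not overlap.

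Alb encodes albumin, the main carrier protein of plasma. It read 0, 0, 0 and 0.174 CPM in LN Treg, 2267, 2062 and 2178 CPM in tumor pTreg, and 2961, 3022, 3242, 3110 and 3222 CPM in tTreg. Lymph node libraries were at or close to 0, every tumor library was high, and all tTreg libraries lay above all pTreg libraries. All the LN signal came from 3 counts in replicate 4.

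Trf encodes transferrin, which carries iron in plasma. It read 3.65, 3.02, 3.87 and 3.02 CPM in LN Treg, 2141, 2039 and 2105 CPM in tumor pTreg, and 3046, 3093, 3076, 3030 and 3045 CPM in tTreg. The order of the groups was that of Alb, but each LN library held 44 to 67 Trf counts, so lymph node Trf was low and measurable. Trf lies at chr9:103204001-103230444 on the minus strand, where GENCODE also places the overlapping gene Gm20425 on the same strand. No row of the tables had that second name, and the sources used here do not say how its reads were assigned.

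Afp read 5.24, 4.67, 4.10 and 3.66 CPM in LN Treg, from 63 to 89 counts per library. It read 139.1, 138.3 and 139.3 CPM in tumor pTreg, and 217, 215, 214, 239 and 231 CPM in tTreg. Lymph node values were low but present in every library, the pTreg values were nearly equal, and no groups overlapped. Afm, the next gene of the albumin family and 10.0 kb beyond Afp, totalled 6, 5 and 7 counts over the libraries of LN Treg, tumor pTreg and tumor tTreg. Afm was chosen after its values were seen.

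Ttr encodes transthyretin, the plasma carrier of thyroid hormone and of retinol-binding protein. Its counts were 0, 0, 0 and 1 in LN Treg, 0, 0 and 3 in tumor pTreg, and 1, 4, 3, 5 and 3 in tTreg. Ttr was at the edge of detection in each group. The tTreg libraries together held 11.6 times the LN level, with a 95% interval of 1.80 to 485 that covers counting error only, and no fold was computed for pTreg because both groups were at or under the floor of 3 counts over a group. Ttr was thus near 0 in the same tumor libraries in which the serum carriers Alb and Trf were abundant.

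Itih2 encodes a heavy chain of the inter-alpha-trypsin inhibitor, a plasma protein complex that is coupled to hyaluronan in tissue. It had no count in any LN library and read 304, 296 and 288 CPM in tumor pTreg and 326, 336, 362, 339 and 348 CPM in tTreg. The tumor groups did not overlap but were close, with 304 as the highest pTreg value and 326 as the lowest tTreg value. The gene lies at chr2:10094593-10131396.

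Apoa1 and Apoa2 encode the main structural proteins of HDL. Apoa1 had 0, 1, 3 and 2 counts in LN Treg, 1, 1 and 3 in tumor pTreg, and 4, 4, 4, 2 and 2 in tTreg. The groups overlapped, and the ratio of tumor to LN levels was 1.02 (95% interval 0.245 to 3.995) for pTreg and 1.93 (0.716 to 6.01) for tTreg. Apoa1 lies in a cluster on chromosome 9 (chr9:46228580-46230466) with Apoc3, Apoa4 and Apoa5, and that cluster was nearly without counts: Apoc3 had none in any library, and Apoa4 and Apoa5 had at most 2 counts over the libraries of a group.

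Apoa2 (chr1:171225054-171226379) had no count in LN Treg, 5, 4 and 3 counts in tumor pTreg, and 2, 5, 3, 7 and 4 counts in tTreg. Every tumor library had a few counts and no LN library had any, which puts the level at least 4.88-fold higher in tumor pTreg and at least 5.06-fold higher in tTreg against a floor of 3 counts over the LN group. With no filter on low counts, edgeR gave Apoa2 an adjusted p of 0.000131 and 2.69e-05 in these comparisons. The same fit gave Ttr 0.339 in tumor pTreg and 0.00430 in tTreg, and Apoa1 0.968 and 0.244.

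Krt8 and Krt18 lie on chromosome 15, at chr15:101996698-102004482 and chr15:102028180-102032027, in opposite orientations and with a gap of 23.7 kb. Krt18 read 0.647, 0.412, 0.5195 and 0.232 CPM in LN Treg, 672, 624 and 628 CPM in tumor pTreg, and 912, 936, 912, 941 and 961 CPM in tTreg. Krt8 read 0, 0, 0.0577 and 0.116 CPM in LN Treg, 493, 476 and 482 CPM in tumor pTreg, and 745, 765, 780.3, 781 and 766 CPM in tTreg. Both keratins were abundant in each tumor library and close to 0 in each LN library, and no groups overlapped.

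Aldh1a1 encodes a retinal dehydrogenase that makes retinoic acid. It had no count in any LN library and read 309, 296 and 304.5 CPM in tumor pTreg and 403, 435, 431, 437 and 437 CPM in tTreg. Replicate 1 of tTreg was low for its group and still above every pTreg library. Aldh1a1 lies at chr19:20492715-20643465, close to its near copy Aldh1a7, and reads shared between the copies could be split by the counting.

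**Figure D1:**
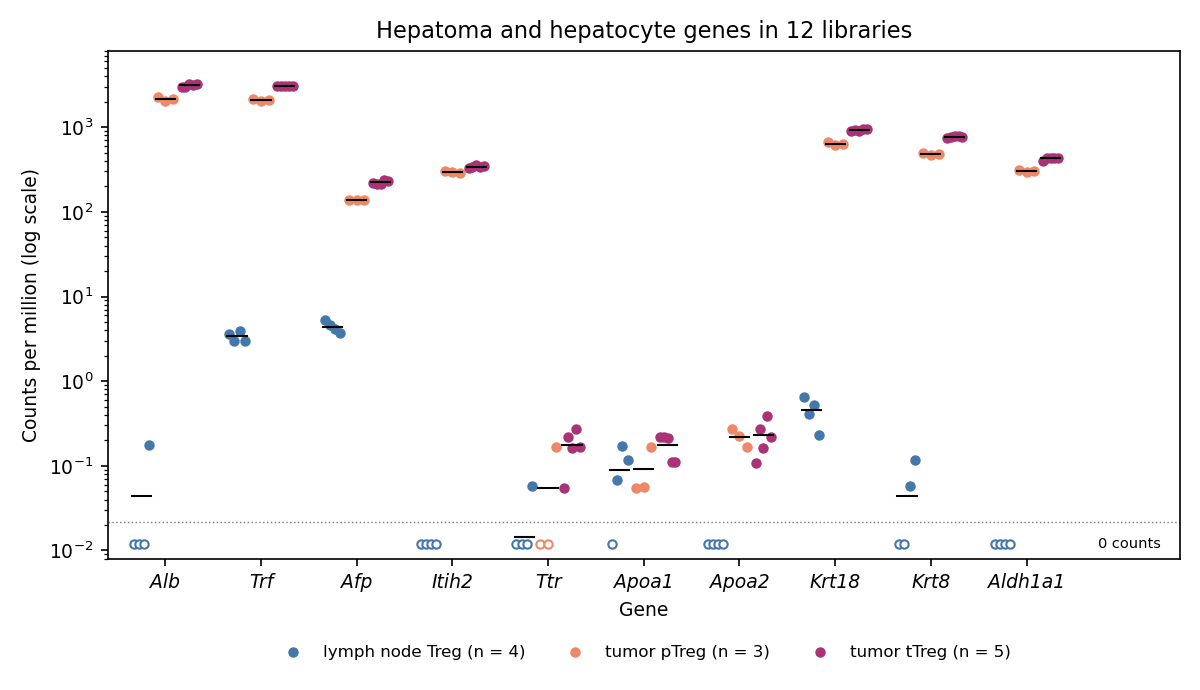
Level of each of the 10 genes in each library, in CPM on a log axis, with 1 point per library, a bar at the group mean and open points for libraries with 0 counts. Alb, Trf, Afp, Itih2, Krt18, Krt8 and Aldh1a1 are above 100 CPM in all 8 tumor libraries, and Ttr, Apoa1 and Apoa2 are below 1 CPM in all 12.

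How do tumor Treg libraries differ from those of lymph node Treg cells? Every tested gene of the group was higher in tumor pTreg, 7 of 7, in a comparison where 47.6% of the 15705 genes tested were called higher, 39.8% lower and 87.5% in either direction (edgeR quasi-likelihood F test, Benjamini-Hochberg adjusted p under 0.05). In tumor tTreg it was also 7 of 7, against 48.1% of genes tested called higher, 42.3% lower and 90.3% in either direction. The groups did not overlap for these 7 genes and Apoa2, where 43.6% of tested genes were higher without overlap in tumor pTreg and 43.2% in tTreg. Both comparisons use the same LN libraries and are not independent.

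The fitted median log2 fold change of the 7 genes was 13.27 in tumor pTreg and 13.92 in tTreg, or 12.67 and 12.88 with genes of 0 to 3 LN counts set to their count ratio or lower bound. Over all genes tested the median was 0.12 and 0.10. Alb, Itih2, Aldh1a1, Krt8 and Krt18 passed the filter through their tumor counts alone and so had to differ, which also fixes a high median, and the 7 genes do not stand for all 10.

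Trf, Krt18 and Afp had more than 3 counts in LN Treg, and their ratios are of counts per library total with a 95% counting interval. Trf was 616-fold higher in tumor pTreg (540 to 705, adjusted p = 1.34e-38) and 898-fold higher in tTreg (788 to 1029, adjusted p = 2.15e-39). Krt18, with 30 counts over the LN group, was 1414-fold higher in tumor pTreg (990 to 2095) and 2055-fold higher in tTreg (1439 to 3046). No p-value is given for Krt18, because it passed the filter through its tumor counts alone. Afp had the lowest of these ratios, 31.6 in tumor pTreg (28.1 to 35.6, adjusted p = 5.37e-31) and 50.7 in tTreg (45.1 to 57.1, adjusted p = 9.94e-34). The adjusted p-values of Trf and Afp are from the edgeR fit, whose standard error is below the counting error here, and may be too small.

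The other 4 tested genes had 0 to 3 counts over the LN group and are given as count ratios or lower bounds. Alb was 47798-fold higher in tumor pTreg (95% counting interval 16355 to 231781) and 68567-fold higher in tTreg (23462 to 332488). Krt8 was 10662-fold (3648 to 51704) and 16915-fold (5788 to 82025) higher. With no LN count, Itih2 was at least 6518-fold higher in tumor pTreg and at least 7543-fold higher in tTreg, and Aldh1a1 at least 6682-fold and at least 9440-fold higher.

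Levels of different genes can be set side by side only per transcript length, as FPKM (fragments divided by transcript length and by the size of the library). In tumor pTreg the order was Trf (1292 ± 35.7 FPKM), Alb (1254 ± 60.9), Krt18 (568 ± 23.7), Krt8 (293 ± 5.72), Aldh1a1 (173 ± 4.11), Itih2 (107 ± 2.92) and Afp (81.05 ± 0.689). Trf and Alb differed by less than their spread and no other neighbours in this order did. In tumor tTreg Trf (1884 ± 33.2 FPKM) and Alb (1805 ± 78.6) again led with overlapping spreads, followed by Krt18 (829 ± 22.4), Krt8 (466 ± 10.5) and Aldh1a1 (246 ± 9.31). Afp (129.7 ± 6.60) and Itih2 (123 ± 4.90) changed places there and were within their spread.

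Among all genes of a tumor library Trf ranked 90 to 92 by FPKM in pTreg and 61 to 70 in tTreg, and Alb ranked 93 to 100 and 65 to 71. Krt18 ranked 167 to 179 and 139 to 146. Apoa2, at 1.36 ± 0.450 and 1.37 ± 0.626 FPKM, ranked no better than 11451, and Ttr and Apoa1 were below it in mean FPKM. In LN Treg the order was another: Afp led at 2.96 ± 0.507 FPKM and took 50.9% of the summed FPKM of the 10 genes, Trf took 38.7% and Krt18 6.74%.

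How do the tumor groups differ from each other? With TMM scaling all 7 tested genes were lower in tumor pTreg than in tTreg, while relative to the summed counts of the 10 genes, a comparison among these genes, 2 were lower and 1, Itih2, was higher. With TMM scaling 25.3% of the 15705 genes tested were called lower, 26.8% higher and 52.1% in either direction. The 7 genes were also lower without overlap between the libraries of the groups, against 24% of genes tested. Their median log2 fold change (pTreg over tTreg) was -0.53, against -0.01 over all genes tested.

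Afp (1.60-fold lower, log2 -0.68, SE 0.0381, adjusted p = 6.50e-15) and Krt8 (1.58-fold, log2 -0.66, SE 0.0310, adjusted p = 9.99e-17) differed most. Trf (log2 -0.54, SE 0.0309, adjusted p = 9.88e-15), Krt18 (log2 -0.53, SE 0.0327, adjusted p = 4.60e-14), Alb (log2 -0.51, SE 0.0408, adjusted p = 1.44e-11) and Aldh1a1 (log2 -0.49, SE 0.0326, adjusted p = 2.08e-12) lay close together, at 1.41-fold to 1.45-fold. Itih2 was 1.15-fold lower (log2 -0.20, SE 0.0331, adjusted p = 1.21e-05), the smallest difference of the 7. Under limma on log2 of FPKM + 0.1, Alb and Krt18 were no longer called (adjusted p = 0.0829 and 0.0608), at log2 fold changes of -0.53 and -0.55. Over all 22 alternatives scaled to the whole library the log2 fold change was -0.56 to -0.48 for Alb and -0.58 to -0.51 for Krt18. For the untested genes the ratio of pTreg to tTreg levels was 0.316 for Ttr (95% counting interval 0.0590 to 1.10), 0.527 for Apoa1 (0.151 to 1.51) and 0.964 for Apoa2 (0.432 to 2.05), so a difference was not detectable at this depth.

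With library sizes set to the summed counts of the 10 genes, each value becomes a difference from the group as a whole. Most of these counts are of Alb and Trf, so this scaling sets those genes close to 0 and gives other genes either sign, and it compares the genes with each other only. Trf (log2 -0.01, 95% interval -0.08 to 0.05), Krt18 (-0.01, -0.08 to 0.06), Alb (0.01, -0.05 to 0.08) and Aldh1a1 (0.03, -0.04 to 0.11) were then not called.

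Afp (log2 -0.15, -0.24 to -0.06, adjusted p = 0.00278) and Krt8 (-0.13, -0.20 to -0.07, adjusted p = 0.000954) stayed lower in tumor pTreg than the group as a whole. Itih2 turned to higher (0.32, 0.25 to 0.40, adjusted p = 8.00e-09). This scaling moved the median of all genes by 0.52, and with it 12472 genes were called higher in tumor pTreg and 231 lower, against 4204 and 3980 with TMM. With library sizes set to the macrophage and monocyte markers all 7 genes stayed lower, from -0.16 for Itih2 to -0.63 for Afp.

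**Figure D2:**
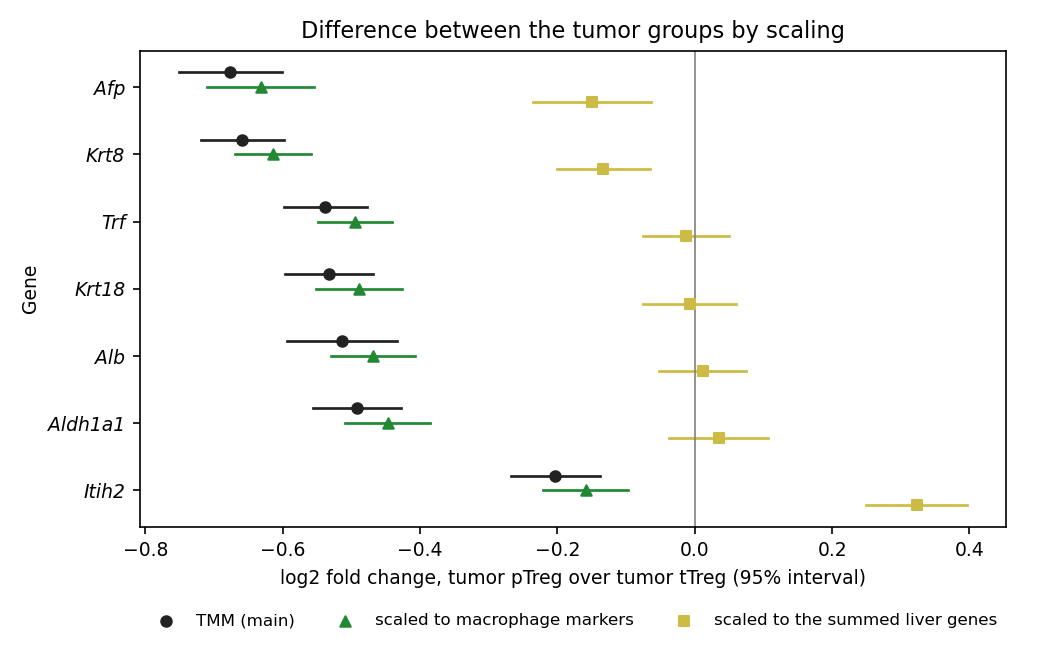
Log2 fold change of tumor pTreg over tumor tTreg for the 7 tested genes, with 95% intervals, under 3 scalings of the libraries. With TMM and with macrophage markers all 7 genes are below 0, and relative to the summed liver genes Trf, Krt18, Alb and Aldh1a1 span 0, Afp and Krt8 stay below it and Itih2 is at 0.32.

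The shares of Trf, Alb and Krt18 among the 10 genes were close in the 8 tumor libraries, and those of Itih2, Krt8 and Afp differed between the groups. Of their summed FPKM, Trf took 34.3 ± 0.310% in tumor pTreg and 34.4 ± 1.00% in tTreg, Alb took 33.3 ± 0.504% and 32.9 ± 0.853%, and Krt18 took 15.1 ± 0.255% and 15.1 ± 0.323%. The share of Itih2 was 2.75 to 2.95% in tumor pTreg and 2.19 to 2.32% in tTreg, without overlap. The share of Krt8 was 7.67 to 7.89% and 8.38 to 8.66%, also without overlap, and lower in tumor pTreg. That of Afp was 2.06 to 2.25% and 2.27 to 2.53%, lower in tumor pTreg and without overlap.

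Ratios between pairs of genes were also read in each library. Krt18 to Krt8, partners in 1 filament, stood at 1.94 ± 0.0460 in tumor pTreg and 1.78 ± 0.0466 in tTreg by FPKM, without overlap. Alb to Trf stood at 0.971 and 0.959. Alb to Afp, the adult to the fetal member of the family, was 14.6 to 16.3 in tumor pTreg and 13.0 to 14.9 in tTreg, and those ranges overlapped.

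**Figure D3:**
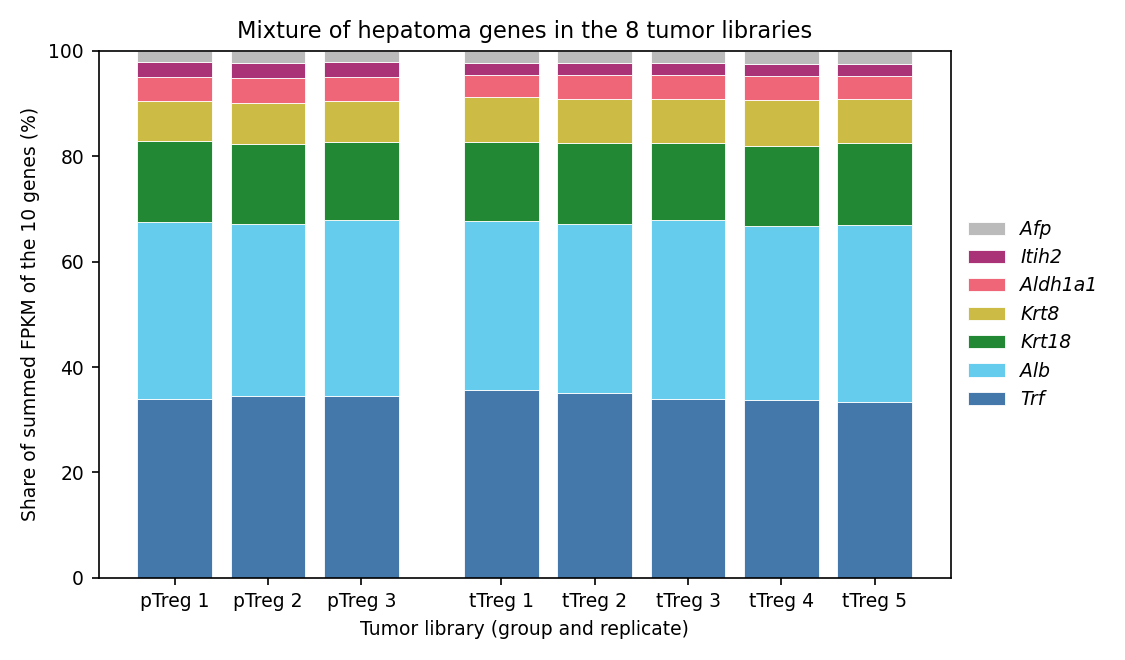
Share of each gene in the summed FPKM of the 10 genes, in percent, as 1 stacked bar for each of the 3 tumor pTreg and 5 tumor tTreg libraries; Ttr, Apoa1 and Apoa2 are too low to be seen and are not drawn. Trf and Alb fill about the same share of every bar, and the Itih2 band is wider in the pTreg bars (2.75 to 2.95%) than in the tTreg bars (2.19 to 2.32%).

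Some lists of markers of other cells differed between the tumor groups in the direction of the 10 genes, and others did not. Of all genes tested, 25.3% were called lower in tumor pTreg than in tTreg and 26.8% higher. The 5 genes shared by biliary cells and some hepatomas (Krt7, Krt19, Epcam, Sox9 and Spp1) summed to 11.6 ± 0.946 CPM in LN Treg, 498 ± 11.1 in tumor pTreg and 726 ± 8.66 in tTreg, and 4 of the 5 were lower in tumor pTreg. Krt7 had no LN count. The 8 fibroblast markers summed to 143.8 ± 10.2 CPM in tumor pTreg and 740.1 ± 49.6 in tTreg, with 7 of 8 lower in tumor pTreg and a median log2 fold change of -2.91. The 13 macrophage markers had a median of -0.02, with 1 higher, 4 lower and 8 not called. The 6 endothelial markers summed to 189.5 ± 2.60 CPM in LN Treg, 42.7 ± 2.99 in tumor pTreg and 24.7 ± 0.875 in tTreg. Of 5 tested, 3 were higher in tumor pTreg and 2 were not called. Most of each sum was Pecam1, at 188.8, 30.9 and 18.4 CPM. It was highest in LN Treg, so the sum is not particular to endothelium here. The other endothelial markers were low in the tumor groups, such as Cdh5 (4.66 and 1.56 CPM) and, in the opposite direction, Tek (0.570 and 0.854 CPM). Per 100 pan-T counts the 10 genes held 441 ± 18.6 counts in tumor pTreg and 6545 ± 122 in tTreg, and per 100 macrophage marker counts 93.8 ± 3.00 and 131 ± 1.07. The part of each of these cell types in the levels of the 10 genes was not tested.

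Other plasma protein genes spanned a wide range of levels. Of 27 such genes 13 were tested, and 12 were higher and 1, the antithrombin gene Serpinc1, was lower than in LN Treg in each tumor group, where 47.6% and 48.1% of all genes tested were higher. Of the 13, 9 had at most 3 counts over the LN group, passed the filter through tumor libraries and had to be higher. The same holds for 2 of 3 tested genes of the apolipoprotein list below, 4 of 11 of the keratins and junction genes, 7 of 12 transcription factors, 4 of 8 fetal genes, 4 of 7 enzymes, 3 of 12 receptors and partners and 2 of 5 retinoid genes. This tally stops at 3 LN counts and is a lower bound. Foxa1 (4 LN counts), Prox1 (8), Arg1 (10) and Hp (15), for example, also passed the filter through tumor libraries. Between the tumor groups 8 of the 13 plasma protein genes were lower in tumor pTreg, Serpinc1 was higher and 4 (Ambp, F2, Fga and Hpx) were not called. Their median log2 fold change was -0.51. Of all genes tested, 25.3% were lower and 26.8% higher in that comparison. These shares, and those against LN Treg, apply to every list below. Cp, which encodes the copper protein ceruloplasmin, stood at 323 ± 11.2 FPKM in tumor pTreg and 352 ± 7.44 in tTreg (log2 -0.12, adjusted p = 0.00133). With values for tumor pTreg given before those for tTreg here and in what follows, the complement gene C3 (74.1 and 107 FPKM), Rbp4 (59.4 and 94.5 FPKM), which encodes the retinol carrier that binds transthyretin, and Fetub (17.2 and 22.0 FPKM) were also lower in tumor pTreg.

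Serpina1a, Serpina1c, Serpina1d and Serpina1e, near-identical alpha-1-antitrypsin genes whose reads are hard to separate, and Itih1 and Plg, had no count in any tumor library. For each of these genes that allows at most 0.0206 CPM over the 8 tumor libraries, 3 counts of 145.7 M, for counting error only. Serpina1b, another copy on the list, had 3 counts over the tumor pTreg libraries, 4 over those of tTreg and 1 over LN Treg. The bound therefore does not cover the alpha-1-antitrypsin genes as a family. Some genes whose products form 1 complex differed in level, chosen here after their values were seen. Fgb (12.4 and 22.9 FPKM) and Fgg (11.1 and 19.7 FPKM), which encode fibrinogen chains, were present while Fga, which encodes the remaining chain, was at 0.157 and 0.302 FPKM. Itih1 likewise had no tumor count beside the abundant Itih2.

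Of 10 other apolipoprotein genes 3 were tested, all 3 were higher than in LN Treg in both tumor groups, and 1 was lower in tumor pTreg than in tTreg with 2 not called. Apoe, which macrophages also make, was at 7376 ± 87.8 FPKM in tumor pTreg and 7070 ± 282 in tTreg (log2 0.07, adjusted p = 0.0786), against 28.4 ± 2.33 in LN Treg. Its neighbours Apoc4 (17.1 and 31.4 FPKM, log2 -0.84, adjusted p = 5.73e-06) and Apoc2 (14.6 and 16.2 FPKM, not called) were also present, and Apoc1 stood at 1.87 and 1.22 FPKM, untested.

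Of 13 other epithelial keratin and junction genes 11 were tested. Krt7, Krt19 and Epcam are also among the biliary genes above, so these lists are not independent. In each tumor group 10 were higher and 1, the plectin gene Plec, was lower than in LN Treg. Between the tumor groups 8 were lower in tumor pTreg, 2 (Cdh1 and Plec) were higher and 1 (Krt20) was not called, with a median of -0.39. Epcam, an epithelial adhesion gene (126 and 205 FPKM), Jup, which encodes plakoglobin (95.6 and 130 FPKM), and the keratins Krt19 (38.1 and 58.3 FPKM) and Krt7 (36.0 and 52.1 FPKM) were lower in tumor pTreg. Cdh1, which encodes E-cadherin and was named after its values were seen, went the other way at 2.78 and 0.614 FPKM (log2 2.15, adjusted p = 1.75e-15).

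Of 14 liver transcription factor genes 12 were tested. Against LN Treg 11 were higher and 1, Zhx2, lower in each tumor group, where 47.6% and 48.1% of all genes tested were higher. Between the tumor groups 9 were lower in tumor pTreg and 3, Nr0b2 and Zhx2 among them, were not called, with a median of -0.37. Zhx2, which encodes a repressor of Afp in the liver after birth, read 25.9 ± 1.33 FPKM in LN Treg, 6.54 ± 0.234 in tumor pTreg and 6.27 ± 0.265 in tTreg. Zbtb20, which encodes another repressor of Afp after birth, went the other way, at 2.61 ± 0.110 FPKM in LN Treg, 6.15 ± 1.72 in tumor pTreg and 7.08 ± 0.590 in tTreg, and was called higher in both tumor groups. Both were named after their values were seen. Cebpa, which encodes C/EBP-alpha and is also active in myeloid cells, read 63.8 ± 2.37 and 69.2 ± 2.07 FPKM (log2 -0.09, adjusted p = 0.0198). The pioneer factor genes Foxa1 (10.4 and 12.4 FPKM), Foxa2 (9.45 and 12.6 FPKM) and Foxa3 (6.46 and 8.44 FPKM) were lower in tumor pTreg. Hnf4a, named after its values were seen, read 0.980 and 1.39 FPKM.

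Of 10 fetal liver and hepatoma genes 8 were tested. Against LN Treg 6 were higher, Plagl1 was lower and Igf2 was not called in tumor pTreg, and 5 were higher and 3 (Igf2, Mest and Plagl1) lower in tTreg. In the comparison of tumor groups those 3 were higher in tumor pTreg, 3 were lower and 2 (H19 and Lin28b) were not called. Gpc3, which encodes the hepatoma antigen glypican-3, had no LN count and read 29.9 ± 2.74 and 40.7 ± 1.26 FPKM (log2 -0.43, adjusted p = 2.16e-08), and the oncofetal RNA-binding protein genes Igf2bp3 (7.38 and 9.40 FPKM) and Igf2bp1 (3.86 and 6.17 FPKM) were also lower in tumor pTreg. Plagl1 was highest in LN Treg, at 17.1 FPKM against 1.87 and 1.41.

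Enzymes of mature hepatocytes were sparse. Of 16 genes 7 were tested, with 5 higher and 2 (Ass1 and Tdo2) lower than in LN Treg in each tumor group. Between the tumor groups 3 were higher in tumor pTreg and 4, Cyp2e1, Hpd and Tdo2 among them, were not called, with a median of 0.24. Cyp3a11, Cyp2c29 and G6pc had no count in any tumor library, and the median of the 16 genes over the 8 tumor libraries was 0.0769 FPKM. Arg1, a urea cycle gene that macrophages also express (196 and 143 FPKM), Ass1 (61.1 and 43.0 FPKM, with 141 in LN Treg) and Tat, which encodes tyrosine aminotransferase (10.0 and 8.69 FPKM), were higher in tumor pTreg, the direction opposite to that of Alb. Hpd, which encodes a further enzyme of tyrosine breakdown, read 3.04 and 3.03 FPKM and was not called.

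**Figure D4:**
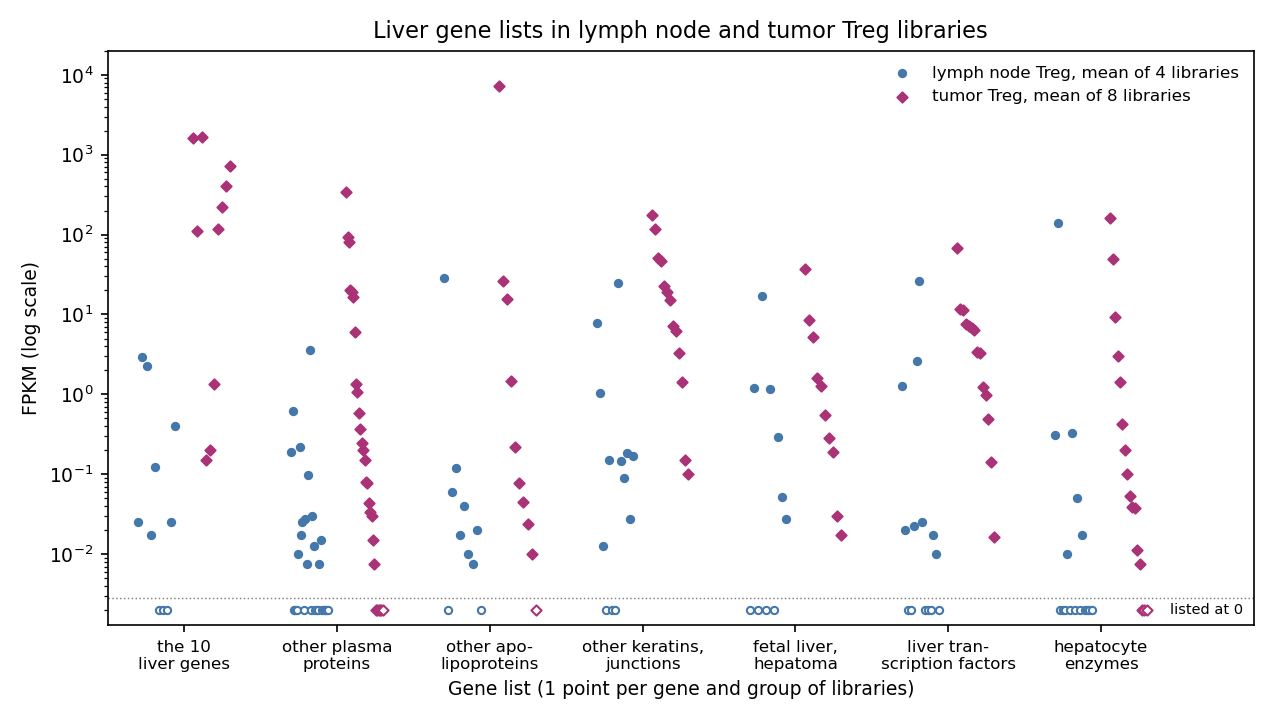
Mean FPKM of each gene in the 4 LN Treg libraries and in the 8 tumor libraries, on a log axis, by gene list, with genes listed at 0 as open points below the dotted line. Of the 10 genes 7 lie above 100 FPKM in tumor libraries, while 3 hepatocyte enzymes, 6 other plasma protein genes and 1 apolipoprotein gene are listed at 0 there.

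Receptors and partners of the encoded proteins were read in the same libraries. Of 16 such genes 12 were tested, with 11 higher and 1, Abcg1, lower than in LN Treg in each tumor group. Rbp4 and Ambp are also on the list of plasma protein genes. In tumor pTreg against tTreg 2 (Abcg1 and Slc40a1) were higher, 5 (Lrp1, Rbp4, Scarb1, Stra6 and Tnfaip6) were lower and 5 were not called. Of all genes tested 26.8% were higher and 25.3% lower there. Cd44, the hyaluronan receptor, read 49.4 FPKM in LN Treg, 144 in tumor pTreg and 140.2 in tTreg, and the tumor groups were not called apart. Stra6, which encodes the receptor of retinol-binding protein (110 and 147 FPKM), and Lrp1, a scavenger receptor gene (111 and 124 FPKM), were lower in tumor pTreg. Fcgrt, which encodes the receptor that recycles albumin, read 0.693 FPKM in LN Treg and 104 and 108 in the tumor groups, which were not called apart. Hamp, which encodes hepcidin, the liver hormone of iron balance, had no count in any library.

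Beside Aldh1a1, 9 retinoid genes were looked at and 5 tested. All 5 were higher than in LN Treg in both tumor groups, and between the tumor groups 3 (Aldh1a3, Aldh1a7 and Rdh10) were lower in tumor pTreg and 2 (Aldh1a2 and Dhrs3) were not called. Dhrs3, a retinal reductase gene, read 47.6 and 48.1 FPKM in the tumor groups, and Rdh10, whose product makes retinal from retinol, read 13.0 and 15.2 FPKM (log2 -0.22, adjusted p = 0.000119). Aldh1a7 had no LN count and read 3.33 and 4.72 FPKM, with a log2 fold change of -0.49 between the tumor groups (adjusted p = 0.000383), beside -0.49 for its near copy Aldh1a1. Aldh1a2, which encodes another retinal dehydrogenase, read 2.58 and 3.13 FPKM and was not called.

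The genes whose profile over the 12 libraries was most like that of Alb were found among 9464 genes with a mean of at least 10 CPM in tumor libraries. Likeness was the sum over libraries of absolute differences between each gene's share of its own summed CPM and that of Alb, where 0 is identical. The 5 closest genes outside the group were Pllp (0.0164), Cd63 (0.0212), Pcolce (0.0219), Tcim (0.0226) and Crip2 (0.0242). Pllp read 0.188, 24.0 and 34.8 CPM in LN Treg, tumor pTreg and tumor tTreg, and Cd63 read 0.926, 388 and 550 CPM. Within the group Aldh1a1 (0.0247), Krt18 (0.0253) and Trf (0.0295) came close to Alb, and Krt8 (0.0435), Afp (0.0703) and Itih2 (0.0932) were farther. With Alb itself as rank 1, they ranked 7, 8, 15, 88, 331 and 559 in this order. Many genes outside the group were thus closer to Alb than Krt8, Afp and Itih2 were. The 12 libraries fall into 3 groups, so this measure mostly reads the ratios between groups.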

How the data were processed

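The deposited tables cover 55413 genes in 12 libraries. One holds RSEM expected counts, per the submitters' processing notes and its values, and the other holds FPKM, as the authors named it. Per the labels, total RNA was extracted with TRIzol and sequenced on a BGISEQ-500. Per the submitters' processing notes, the authors used STAR 2.7.11a, RSEM 1.3.3, DESeq2 and GRCm38/mm10; the sources used here do not give the annotation. RSEM divides ambiguous reads between genes, which leaves near-identical copies uncertain.

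Expected counts were rounded. Of 27279 genes with any count 15705 passed filterByExpr by group. The main test was the edgeR 4.0.16 quasi-likelihood F test (R 4.3.3) with TMM factors, fitted over all 12 libraries with no factor but group. P-values were adjusted by Benjamini-Hochberg over all genes of a comparison and called under 0.05. Alternatives were DESeq2 1.42.0, limma 3.58.1 on log2 of FPKM + 1 and + 0.1, other scalings and filters, a replicate block, and fits without each library. The fit was tested on simulated counts for tumor pTreg against tumor tTreg only. All 12 simulated libraries had tumor levels and the same spread setting for all genes. The simulation thus does not cover the comparisons with LN Treg or differences in spread between genes. CPM uses full library totals, and FPKM compares genes. Ratios of counts have 95% binomial intervals. A standard error is the log2 fold change over the root of F and is given between tumor groups only, since against low LN counts it is below the counting error. Values are mean ± SD over libraries.

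The 10 genes and the gene lists were chosen with earlier results of these data known. Of each list up to 4 genes are named, those with the highest mean FPKM over the 8 tumor libraries, plus defining genes without a tumor count. A few list genes are not reported here. Promoter windows are from RefSeq (GRCm38.p6), and positions are from GENCODE vM21, in which 53292 gene symbols were found.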

Additional observations from a re-analysis of the deposited data

Results flagged for a closer look

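Chance would single out about 1 in 20 groups of libraries by the measure used here, the gap of the highest or lowest library to its nearest neighbour over the whole range of the group.

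Alb in LN Treg had 3 counts, all in replicate 4, so the gap over the range was 1. Ttr in LN Treg had 1 count, also in replicate 4, and a value of 1. With counts in a single library of 4 this value is always 1, so the chance rate above does not hold for these cases.

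Aldh1a1 in tumor tTreg read 403 CPM in replicate 1 against 431 to 437 in the other 4 libraries, a gap over range of 0.838. With each library left out in turn the log2 fold change of Aldh1a1 between the tumor groups stayed between -0.52 and -0.47.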

How the results depend on the processing

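The direction and call of all 7 tested genes against LN Treg were the same under every alternative run. For Alb, Itih2, Aldh1a1, Krt8 and Krt18, which passed the filter through their tumor counts alone, this could hardly have come out otherwise. Between the tumor groups direction and call were the same except under 2 settings. With limma on log2 of FPKM + 0.1, 5 of the 7 were called lower and 2377 genes were called lower in tumor pTreg, against 3980; the cause was not tested. With library sizes set to the summed counts of the 10 genes, 1 of the 7 was called higher, 2 lower, and 12703 genes were called (12472 higher, 231 lower) against 8184. By construction these values are relative to the 10 genes, so changes of sign are part of this scaling. Alb (0.012), Aldh1a1 (0.035) and Itih2 (0.32) then changed sign.

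With each library left out in turn, 7 genes of the group were called lower in tumor pTreg each time, and the number of all genes called was 7162 to 8224. No pairing by replicate number was seen: same-numbered libraries of the tumor groups correlated at -0.0546 to -0.0042 in their deviations from group means. With 3 such pairs, and numbers that need not stand for animals, pTreg and tTreg libraries may still share mice. With the replicate number as a block, 7 of 7 genes were called in each comparison and 7495 genes in all between the tumor groups. Low counts limit Ttr, Apoa1 and Apoa2 in every comparison.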
